A study of Mus musculus with 11 samples.

Results

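Open chromatin near 36 genes of energy metabolism was examined in mouse CD8+ T cells: 26 genes of glycolysis and its control and 10 genes of fatty acid oxidation. The members are all merged ATAC-seq regions whose nearest protein-coding gene span, up to 100 kb away, belongs to 1 of these genes. They number 249 of the 111041 regions found in the 11 libraries. Of these, 186 belong to the glycolysis genes (110 inside the gene, 29 over a promoter window) and 63 to the fatty acid oxidation genes (46 inside, 8 over a promoter window). Wherever regions are counted by promoter window, the window may be that of another gene. The assignment rests on distance alone, and 1 region was equally close to Pfkm and to Senp1, which is not a member.

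ATAC-seq marks open chromatin by the insertion of a transposase, and the authors listed the peaks of each library with a normalized tag count per 10 M tags. Cells were sorted with a Tcf7-YFP reporter; Tcf7 encodes TCF-1, a transcription factor of naive and memory T cells. Spleen gave 1 library of naive cells (CD44-, CD62L+, YFP+) and 1 of antigen-experienced cells (CD44+, CD62L+, YFP+), and 1 library of effector cells came after 3 days of activation outside the body. After a first YFP sort at day 3, a second culture and a second sort at day 9 gave the other 8 libraries: 2 of cells with high YFP each time (high to high), 3 with low YFP each time (low to low) and 3 of cells that went from low to high. The last group and the first are the 5 YFP-high libraries of day 9, against 3 YFP-low. Mouse age, stimulus and culture medium are not stated in the sources used here. The labels do not say whether libraries of a group came from separate animals, so p-values measure the spread between these libraries only.

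Glycolysis turns glucose into pyruvate in the cytosol, and lactate dehydrogenase and the monocarboxylate transporters dispose of the product. Fatty acid oxidation takes fatty acids into mitochondria through the carnitine shuttle and shortens them by β-oxidation. Activated T cells are known for strong glycolysis, and memory T cells for their use of fatty acid oxidation. Accessibility is not expression, and neither RNA nor metabolite was measured here.

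Libraries held 20.8 to 59.97 M tags. Peaks took 9.01% to 10.2% of all tags in YFP-high libraries of day 9, 10.4% to 12.5% in YFP-low ones, 9.08% in effectors and 15.01% and 15.8% in the spleen libraries. Peak windows were 132 bp in the naive library, 136 bp in 1 high-to-high library and 172 bp in the others. T cell marker genes had regions in 9 or 10 of 10 genes in every library, with a summed tag count of 2651 in the naive, 2836 in the antigen-experienced and 724 in the effector library and 1035 to 1405 at day 9. Of 7 myeloid markers 4 or 5 had regions in every library (sums of 128.1 to 263), and Csf1r had none in any. Of 4 natural killer markers 3 or 4 had regions (322 to 594), and of 4 erythroid markers 2 or 3 (53.3 to 89.7), with none at the globin gene Hbb-bs. Of 4 CD4 and regulatory T cell markers (Cd4, Zbtb7b, Foxp3 and Cd40lg) 3 or 4 had regions (93.85 to 314.5). The B cell gene Cd79a had none in any library. The summed tag count of regions near 5 B cell markers (Cd79a, Cd79b, Ms4a1, Pax5 and Ebf1) was 92 in the naive, 221 in the antigen-experienced and 373 in the effector library, where Cd79a and Cd79b had no region, and 119.6 to 224 in the day 9 libraries. The part of these markers in the results was not tested.

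The promoters of most members were open throughout. Of the 34 genes with a window in the RefSeq promoter table (GRCm38.p6; Slc2a3 and Ppargc1b were not matched), 18 of 25 glycolysis genes and 6 of 9 fatty acid oxidation genes had a peak over a window in all 11 libraries, against 24.9% of the 27025 genes of the table. The table holds more genes than the 21627 protein-coding ones used to assign regions. A gene with several windows was counted if any of them had such a peak. The members were not set beside genes of like type or expression. The exceptions among glycolysis genes were Slc2a1, Hk1, Gpi1, Pfkl, Aldoa, Eno2 and Slc16a3, with peaks there in 4 to 10 libraries. Acadl had such a peak in 3 libraries and Acadvl in 9. Ppargc1a, which encodes the mitochondrial coactivator PGC-1α, had none in any library over its window on chromosome 5 (start 51567676). A library can lack a peak over a window and still have one at its edge. Merged regions that reach into a window of Slc2a1 (start 119108751) and of Hk1 (chr10:62340215-62340483) were called in all 11 libraries. So was a Pfkl region next to its window (chr10:78009302-78009703).

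The 250 bases upstream of the annotated start are shown for 6 of these promoters, 5′ to 3′ on the gene's strand. Slc16a1 is the gene that holds the day 9 call below. Hk2 and Pdk1 had the highest and the lowest difference between effector and naive cells among the glycolysis regions at promoter windows, Ldha holds 2 copies of the E-box, and Acadm and Hadhb are the 2 strongest promoters of fatty acid oxidation. Capitals mark, on either strand, the E-box CACGTG, the hypoxia response cores ACGTG and GCGTG, and AGGTCA, an element of nuclear receptors; ACGTG lies within CACGTG. The stretches are chr3:104638414-104638663 (Slc16a1, plus strand), chr6:82774455-82774704 (Hk2, minus), chr7:46845554-46845803 (Ldha, plus), chr2:71872974-71873223 (Pdk1, plus), chr3:153944644-153944893 (Acadm, minus) and chr5:30155003-30155252 (Hadhb, plus).
Slc16a1 promoter: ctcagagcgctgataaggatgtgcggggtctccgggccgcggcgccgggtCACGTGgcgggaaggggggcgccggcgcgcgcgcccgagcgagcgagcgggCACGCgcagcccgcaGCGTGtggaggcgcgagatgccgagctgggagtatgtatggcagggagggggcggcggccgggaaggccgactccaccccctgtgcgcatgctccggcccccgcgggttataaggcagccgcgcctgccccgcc
Hk2 promoter: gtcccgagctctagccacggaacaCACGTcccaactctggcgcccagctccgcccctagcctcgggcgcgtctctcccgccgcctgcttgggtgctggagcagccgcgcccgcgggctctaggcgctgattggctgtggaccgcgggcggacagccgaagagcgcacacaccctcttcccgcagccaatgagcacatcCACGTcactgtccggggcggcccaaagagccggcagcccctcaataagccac
Ldha promoter: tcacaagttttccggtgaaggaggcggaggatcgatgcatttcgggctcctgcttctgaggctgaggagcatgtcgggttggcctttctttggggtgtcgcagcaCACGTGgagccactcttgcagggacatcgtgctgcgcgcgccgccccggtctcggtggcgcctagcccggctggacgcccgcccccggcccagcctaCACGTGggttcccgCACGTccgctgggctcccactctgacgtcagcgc
Pdk1 promoter: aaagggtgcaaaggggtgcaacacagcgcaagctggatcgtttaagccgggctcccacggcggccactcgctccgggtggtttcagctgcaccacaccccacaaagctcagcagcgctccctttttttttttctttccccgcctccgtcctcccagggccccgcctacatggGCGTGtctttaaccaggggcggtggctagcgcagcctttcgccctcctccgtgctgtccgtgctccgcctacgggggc
Acadm promoter: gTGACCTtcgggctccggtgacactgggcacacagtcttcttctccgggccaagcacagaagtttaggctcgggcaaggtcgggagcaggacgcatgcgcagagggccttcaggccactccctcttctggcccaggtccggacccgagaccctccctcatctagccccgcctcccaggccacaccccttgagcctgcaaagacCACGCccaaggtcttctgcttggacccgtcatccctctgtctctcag
Hadhb promoter: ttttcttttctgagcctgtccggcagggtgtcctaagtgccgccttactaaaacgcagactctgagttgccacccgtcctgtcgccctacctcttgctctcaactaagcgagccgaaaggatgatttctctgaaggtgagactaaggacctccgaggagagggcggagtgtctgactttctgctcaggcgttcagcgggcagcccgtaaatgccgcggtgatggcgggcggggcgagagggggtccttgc

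The Hadhb stretch is also the space next to Hadha, which runs the other way. The genes encode the β and α subunits of the mitochondrial trifunctional protein, and a single region (chr5:30154966-30155229) lay over both windows in all 11 libraries, where it is counted under Hadha. None of the searched letters occurred in the printed Hadhb stretch. ACGTG was found in 19 of the 38 glycolysis windows of 300 bases, in 2 of the 9 fatty acid oxidation windows and in 19.6% of all 32851 windows. Among windows under a peak in all 11 libraries it was found in 12 of 20, 0 of 6 and 30.1%. CACGTG was found in 5 of 38 glycolysis windows, 0 of 9 fatty acid oxidation windows and 7.15% of all. GCGTG was in 21 of 38, 4 of 9 and 32.4%, and AGGTCA in 8 of 38, 3 of 9 and 16.3%. Among the windows under a peak in all 11 libraries, CACGTG was in 4 of 20, 0 of 6 and 12.1%, GCGTG in 14 of 20, 3 of 6 and 57.9%, and AGGTCA in 3 of 20, 2 of 6 and 10.7%. The AP-1 site TGACTCA (1 of 38, 1 of 9, 5.20%) and the TCF-1 forms CTTTGAT (0, 0, 3.73%) and CTTTGAA (1, 0, 5.14%) were in at most 1 window of a list. The ETS core CCGGAAG was in 1 of 38, 2 of 9 and 8.86%, and among the windows under a peak in all 11 libraries in 1 of 20, 2 of 6 and 24.9%. The median GC content was 61.8% in the glycolysis windows, 58.7% in the fatty acid oxidation windows and 52.7% in all windows, and its part in these counts was not tested. Windows of 1 gene can overlap, and a match is a string of letters and not a bound site.

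Region counts differed widely between genes. Pfkfb3, an activator of phosphofructokinase, had 22 regions, Hk2 (hexokinase 2) 19, Slc16a1 16 and Hif1a, the hypoxia-inducible factor, 14. Slc2a3 (the glucose transporter GLUT3), Acadl (long-chain acyl-CoA dehydrogenase) and Ppargc1b had 13 each. Aldoc and Hadhb had 1 each. Of the glycolysis regions 59 of 186, and of the fatty acid oxidation regions 14 of 63, were called in all 11 libraries, where 21.1% of all regions were.

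**Figure D1:**
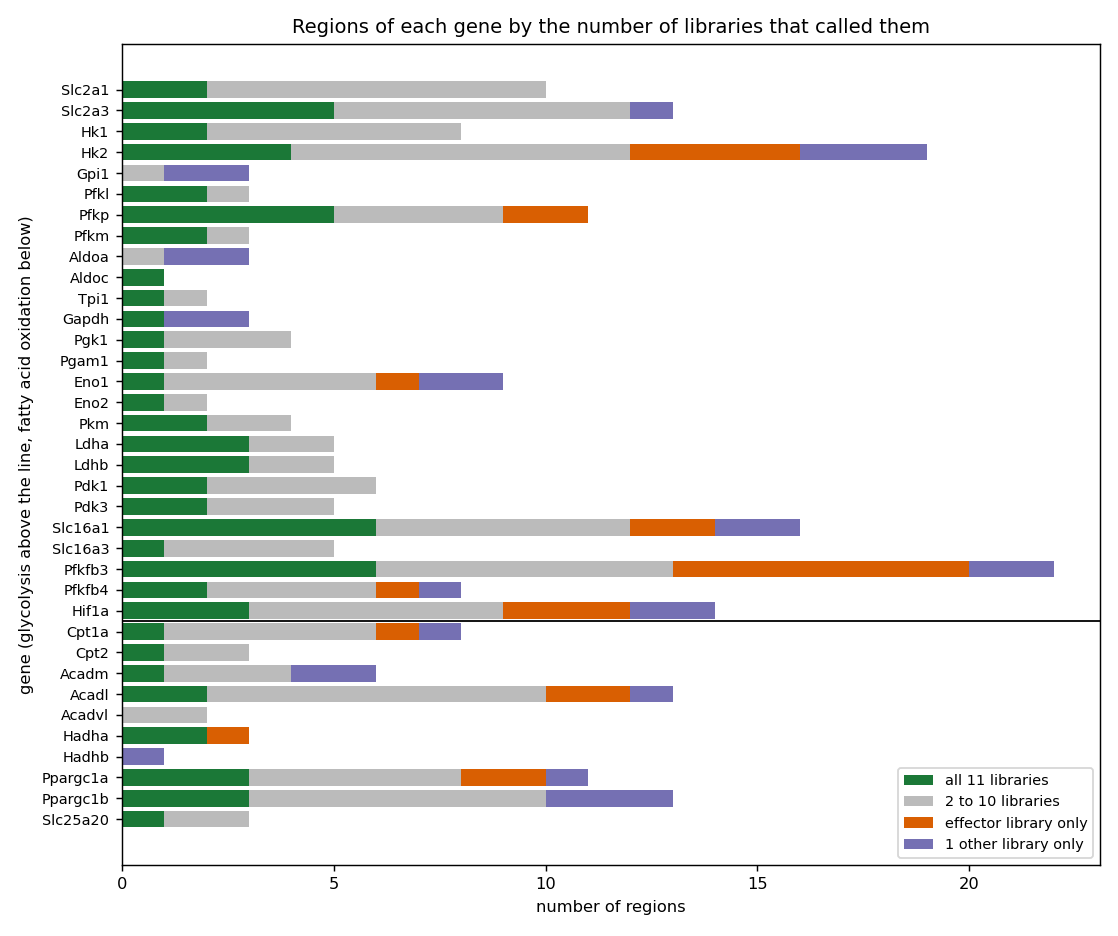
Number of merged regions of each gene (horizontal axis), stacked by how many libraries called them, with glycolysis genes above the line and fatty acid oxidation genes below. Pfkfb3 has 22 regions, 6 of them in all 11 libraries and 7 in the effector library alone, and Hadhb has 1.

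The strongest region lay over a promoter window, of that gene or of another, in 24 of the 36 genes. The glucose transporter genes were among the others. At Slc2a3 the strongest region (chr6:122810855-122811104, 8492 bp outside the gene) reached 129.3 in the naive, 140.8 in the antigen-experienced and 51.9 in the effector library, and 58.5 to 83.4 at day 9 (median 77.2). At Slc2a1 (GLUT1) it lay inside the gene (chr4:119127177-119127571) at 32.2 in naive and 75.6 in antigen-experienced cells, had no peak in the effector library and stood at 33.7 to 48.8 at day 9. All 8 day 9 libraries and the antigen-experienced one were above the naive one there on the deposited scale.

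Among hexokinases, the Hk1 promoter (chr10:62340215-62340483) stood at 104.1 in naive, 102.7 in antigen-experienced and 39.6 in effector cells, and at 53.3 to 73.5 at day 9. The Hk2 promoter (chr6:82774422-82774703) stood at 24.8, 48.4 and 35.8 in the same 3 libraries. At day 9 it was 22.7 and 25.5 in high to high, 34.8, 41.9 and 33.9 in low to low, and 29.6, 28.4 and 26.9 in low to high. The 3 YFP-low libraries were above the 5 YFP-high ones on the deposited scale. The limma difference, which centres each library on its median, was -0.24 ± 0.10 on the log2 scale (SE; adjusted p = 0.522) and did not pass.

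Among the enzymes of lower glycolysis 3 promoters stood out. Gapdh stood at 84.6 in naive and 43.3 in effector cells and at 42.6 to 64.7 at day 9. Pkm (pyruvate kinase) stood at 89 and 37.8, with 43.9 to 65.6 at day 9, and Pgam1 (phosphoglycerate mutase) at 94.5 and 35, with 37.4 to 64.7. Pfkfb4, the sister of Pfkfb3, had the highest value among member regions at promoters, 130.3 in naive cells against 49.5 in effectors and 59.8 to 79.7 at day 9. The spleen libraries were the highest at these promoters, and differences below are given after centring each library on its median.

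Heights of the other main regions varied widely. Phosphofructokinase genes reached 71.2 (Pfkl) and 62 (Pfkp) in antigen-experienced cells, with 31.4 to 46.1 and 39.8 to 56.9 at day 9. Aldoa (aldolase A) stood at 79.3 in naive and 32 in effector cells. The main regions of Tpi1, Aldoc, Gpi1 (promoters) and Eno2 (429 bp outside the gene) reached at most 37.3 in any library. Ldha stood at 46.2 in naive and 26.5 in effector cells and at 21.9 to 37.4 at day 9, and Hif1a at 92.1, 36.6 and 37.4 to 64.7. Among glycolysis genes called in all 8 day 9 libraries, the main region with the lowest median was that of Ldhb, the heart-type lactate dehydrogenase, at 11 to 17.2 (median 14.35) against 34.4 in naive and 23.9 in effector cells. Slc16a3 (MCT4), the lactate exporter, stood at 12.5 to 21.1 in all 11 libraries.

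In fatty acid oxidation the Acadm promoter (medium-chain acyl-CoA dehydrogenase) stood at 101.7 in naive, 116.1 in antigen-experienced and 39.8 in effector cells, and at 43.2 to 62.1 at day 9. The shared Hadha and Hadhb promoter stood at 84.2, 102.3 and 37.6, with 40.7 to 71.1 at day 9. The carnitine shuttle genes followed at lower levels: Cpt2 at 61.7, 68.8 and 29.7, Cpt1a, the entry enzyme, at 36.5, 47.1 and 25.4, and Slc25a20, the carnitine carrier, at 25.6, 26.6 and 15.

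**Figure D2:**
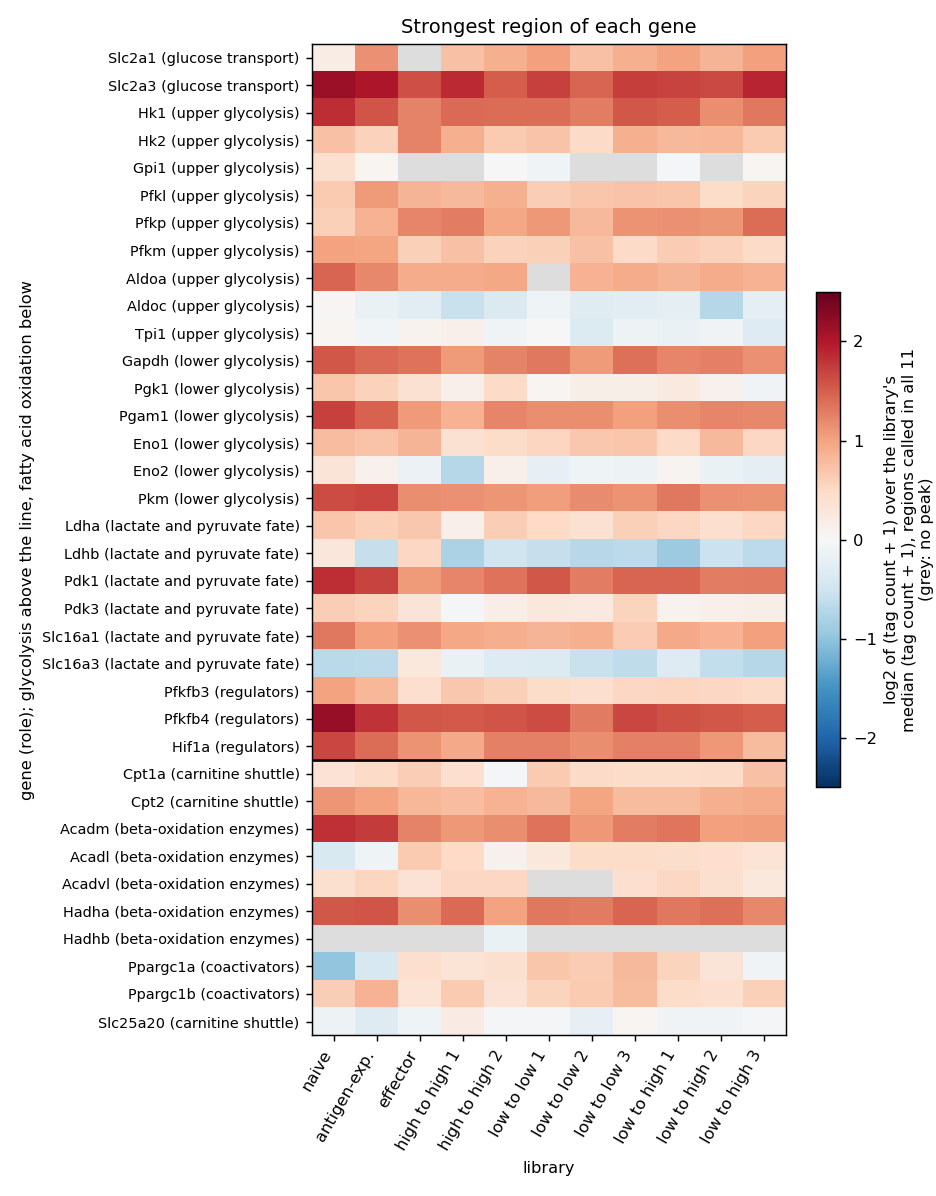
Strongest region of each gene (rows, with role) in each library (columns). Colour is the log2 of the tag count plus 1 over the library's median for regions called in all 11 libraries, and grey means no peak. Slc2a3 and Pfkfb4 are the darkest rows. Ppargc1a and Acadl have lower values in the naive library than in the cultured ones, and lie below the naive library's median.

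Effector cells, activated for 3 days in culture, were set beside naive cells from spleen. The libraries also differ in peak window (172 against 132 bp) and in the share of tags in peaks (9.08% against 15.01%). Activation cannot be told apart here from culture or from these differences. With 1 library each there is no test, and differences are log2 of the tag count plus 1, centred on the median of the regions called in both. Of the 71 glycolysis regions called in both, 7 were at least 2-fold higher in the effector library and 1 lower. Of the 20 fatty acid oxidation regions, 4 were higher and 0 lower. Over all 32333 regions called in both, 11.6% were at least 2-fold higher and 9.21% lower. The median difference was -0.18 for glycolysis, 0.23 for fatty acid oxidation and -0.15 for all regions. Without centring all values fell by 0.56, which left 5 member regions higher and 29 lower. In the same comparison the 23 regions of T cell markers had a median of -0.60, with 1 at least 2-fold higher and 7 lower (30.4%). The 6 regions of B cell markers had a median of 1.28, with 4 higher and 0 lower. The part of these markers in the members' values was not tested.

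Promoters and other regions differed in this comparison. The 23 glycolysis regions at promoter windows had a median of -0.48 and the 6 of fatty acid oxidation -0.34, beside -0.53 for all 7798 regions at promoter windows. The 48 other glycolysis regions had a median of 0.03 and the 14 other fatty acid oxidation regions 0.49, beside 0.01 for all 24535 others. This split was chosen after the data were seen. When only peaks with a tag count of at least 10 were kept, the list medians were 0.11 and 0.12, so that the gap between the lists was 0.01 and not 0.42.

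The largest values of fatty acid oxidation were at Acadl. A region inside the gene (chr1:66841907-66842159) stood at 4.8 in naive, 10.2 in antigen-experienced and 25.8 in effector cells, a log2 difference of 2.77 between effector and naive. At day 9 it stood at 13.8 and 11.8 in high to high, 16.6, 26.8 and 24.1 in low to low, and 13.2, 22.6 and 19.2 in low to high. All 8 day 9 libraries were above naive and, after centring, below the effector library. A second Acadl region 18485 bp outside the gene (chr1:66881794-66882042) stood at 3.6 in naive and 15.7 in effector cells, a difference of 2.42, had no peak in the antigen-experienced library and stood at 8.09 to 14.6 at day 9. The third was in Ppargc1a (chr5:52113037-52113266), at 8.26 and 19.6, a difference of 1.72. Both Acadl regions start from a naive value of 4.8 or less, where few reads stand behind a peak.

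Among glycolysis genes the highest values were a region in Pfkfb4 (chr9:109009721-109010177; 3.46 to 10.2, difference 1.89) and one in Slc2a3 (chr6:122758768-122759023). The Slc2a3 region stood at 16.5 in naive, 38.8 in antigen-experienced and 35.1 in effector cells, a difference of 1.61, and at 21.1 to 28.1 at day 9. Ldhb (1.33), Eno1 (1.22) and Hk1 (1.18) followed, each from a naive value of 4.53 or less, where few reads stand behind a peak. The same limit holds for the Pfkfb4 region, at 3.46 in naive cells. The Hk2 promoter, at 1.08, was the 1 glycolysis region at a promoter window that was at least 2-fold higher.

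The 1 member at least 2-fold lower in effectors lay 37606 bp outside Pdk1 (chr2:71941464-71941697), which encodes a kinase that keeps pyruvate out of the mitochondrial cycle. It stood at 118.6 in naive, 114.6 in antigen-experienced and 11.8 in effector cells, a difference of -2.66, and at 43.9 to 64.2 at day 9. All 8 day 9 libraries lay between the effector and the naive library. The Pdk1 promoter stood at 103.5 in naive and 35.2 in effector cells, a difference of -0.96. The next lowest were Pfkp (-0.88), a region outside Ldha (-0.85) and the Pgam1 promoter (-0.84). In fatty acid oxidation the lowest were a region 10071 bp outside Ppargc1a (-0.83), the Acadm promoter (-0.77) and the Hadha promoter (-0.58).

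**Figure D3:**
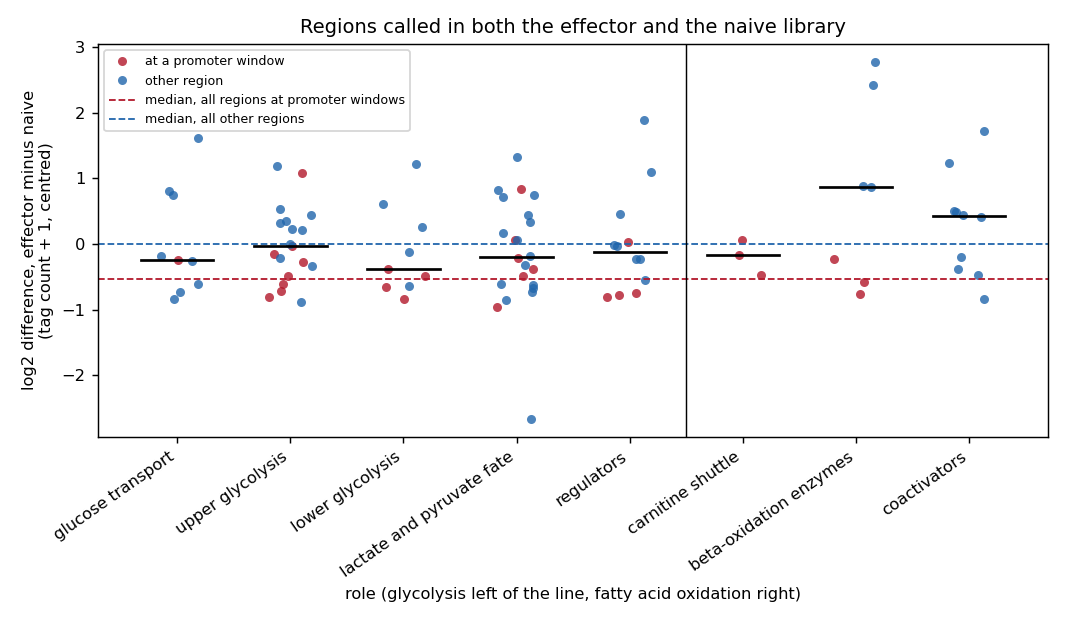
Centred log2 difference between effector and naive cells (vertical axis) for every member region called in both, by role, with black lines for medians and dashed lines for the medians of all regions at promoter windows and of all others. β-oxidation regions run from -0.77 to 2.77, and the lowest glycolysis point is the Pdk1 region at -2.66.

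Antigen-experienced cells differed less from naive cells, again with 1 library each. None of the 101 glycolysis and 27 fatty acid oxidation regions called in both was at least 2-fold different, beside 3.3% of all 44068 regions higher and 1.27% lower. The medians were -0.11 and 0.07, beside -0.05 for all regions. The highest values were the Slc2a1 region inside the gene (1.00), the Slc2a3 region inside the gene (0.97), Acadl (0.74) and the Hk2 promoter (0.73). The lowest was a region upstream of Slc16a1 (-0.96), followed by the Ldhb promoter (-0.81, from 34.4 to 22.4), a region 6359 bp from Pdk1 (-0.71), a region in Hif1a (-0.71) and a second region upstream of Slc16a1 (-0.68). Both reference comparisons share the naive library. Without centring, 2 member regions were at least 2-fold higher.

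Presence of a peak was compared over the groups, counting a library as lacking a region when its list holds no overlapping peak. Of the glycolysis regions 9, and of the fatty acid oxidation regions 2, had a peak in each of the 8 day 9 libraries and in neither spleen library (1.87% of all regions). The strongest lay 12965 bp outside Hif1a (chr12:73888100-73888359), at 55.6 in effectors and 16 to 21.7 at day 9. Pfkp followed at 22.9 to 37.6 and Hk2 at 12.4 to 20.7, with 14.7 and 27.2 in the effector library; 1 spleen library had another peak within 346 bp of the Pfkp region. Hk2 held 4 of the 9, up to 49484 bp from the gene. Pgk1 (10.3 to 18.9), another Hk2 region (7.17 to 13.9) and a Slc2a1 region (5.92 to 8.81) were not called in effectors either. The 2 of fatty acid oxidation belonged to Acadm (6.84 to 15.9) and Slc25a20 (5.42 to 8.81).

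In the effector library alone, 20 glycolysis and 6 fatty acid oxidation regions were called (23.4% of all regions). Pfkfb3 held 7 of them, Hk2 4 and Hif1a 3. The strongest lay 3619 bp outside Pfkp (27.4) and inside Eno1 and Hadha (24.4 each). Next were regions 24393 bp outside Hif1a (22.8) and 45434 bp outside Pfkfb3 (21.7). All 10 other libraries had another peak within 346 bp of the Eno1 region, and 5 of 10 had one near the Cpt1a region (20.5). Both spleen libraries and no cultured one called 1 glycolysis region (Pdk1, 3.2 and 4.9) and 2 fatty acid oxidation regions (Ppargc1b, 7.86 and 6.39, and Slc25a20, 4.26 and 5.75), where 1.77% of all regions did. Both spleen and all day 9 libraries but not the effector library called 19 and 2 (5.67% of all regions). Among them were the Slc16a1 region 7404 bp upstream and the Slc2a1 region inside the gene.

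Between the YFP groups, presence differed little. At least 4 of the 5 YFP-high libraries and no YFP-low library called 1 glycolysis region, near Hif1a, and 1 fatty acid oxidation region, in Ppargc1a (0.242% of all regions). In the Hif1a case 3 of the 4 libraries without the region had another peak within 346 bp. All 3 YFP-low and no YFP-high library called 0 and 0 (0.0693% of all regions).

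Levels at day 9 were set beside the 2 references for the 59 glycolysis and 14 fatty acid oxidation regions called in all 11 libraries. After centring, all 8 day 9 libraries lay below the naive library at 33 and 3 of them, where 44.7% of all such regions did, and above it at 7 and 5 (24.3% of all). They lay below the effector library at 26 and 3, where 27.7% of all did, and above it at 6 and 2 (25.7% of all). These counts use the same day 9 libraries. The mean centred log2 level of the glycolysis regions was 0.29 in naive, 0.16 in antigen-experienced and 0.30 in effector cells and -0.01 to 0.09 in the day 9 libraries. That of the fatty acid oxidation regions was -0.38, -0.22 and -0.02, and -0.17 to -0.03 at day 9.

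The region with the lowest mean day 9 level against both references was upstream of Slc16a1, which encodes MCT1, a transporter of lactate and pyruvate. A region 22106 bp upstream (chr3:104616252-104616558) stood at 39.7 in naive, 28.3 in antigen-experienced and 33.7 in effector cells. At day 9 it stood at 9.1 and 8.42 in high to high, 6.51, 8.36 and 6.66 in low to low, and 8.39, 6.14 and 8.64 in low to high. The day 9 libraries did not overlap the 3 references. Their centred level was -1.44 ± 0.30 (SD, n = 8), a difference of -1.92 from naive and -2.44 from effector. The Slc16a1 promoter itself (chr3:104638429-104638788, over the sequence shown above) stood at 72 and 37.1 in naive and effector cells and at 38.1 to 53 at day 9.

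YFP-high and YFP-low cells of day 9 were compared with limma over the 34383 regions called in all 8 libraries, with Benjamini-Hochberg adjustment over all of them and a threshold of 0.05. Member regions tested were 89 of glycolysis and 21 of fatty acid oxidation. Just 1 rose in YFP-high cells, the Slc16a1 region 7404 bp upstream, and none fell, where 114 of all regions (0.332%) passed. The median log2 fold change was -0.02 for glycolysis, -0.04 for fatty acid oxidation and -0.0049 for all regions. At an unadjusted p under 0.05 were 6 and 2 member regions (6.74% and 9.52%), beside 8.07% of all.

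The called region (chr3:104630997-104631260) had 45 in the naive and 26.4 in the antigen-experienced library and no peak in effectors. It stood at 22.1 and 13.3 in high to high, 11.6, 10.3 and 9.88 in low to low, and 13.4, 16.1 and 13.2 in low to high. All 5 YFP-high libraries were above all 3 YFP-low ones, and below naive. The log2 fold change was 0.71 ± 0.16 (SE; limma adjusted p = 0.0337). For high to high against low to low it was 0.94 ± 0.19 (adjusted p = 0.00993). For low to high against low to low it was 0.56 ± 0.17 (adjusted p = 0.538, and 0.21 with the replicate block). These last comparisons share the low-to-low libraries. The call did not hold without high to high 1, which has the highest value (0.57, adjusted p = 0.165; 0.60 and 0.316 for high to high against low to low), nor without low to low 2 (0.62, adjusted p = 0.40; 0.85 and 0.108). For YFP-high against YFP-low it also did not hold without high to high 2 (0.74, adjusted p = 0.0522), without low to low 3 (0.70, adjusted p = 0.185) or without centring (0.50, adjusted p = 0.0537). It did not hold in either comparison when regions called in at least 6 of the 8 libraries were tested (0.71 and 0.93, adjusted p = 0.624 and 0.451). The sign stayed positive in every alternative that tested the region.

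The other tested Slc16a1 regions did not pass. The one 22106 bp upstream had an estimate of 0.38 ± 0.16 on the log2 scale (limma adjusted p = 0.523) and the promoter 0.13 ± 0.09 (adjusted p = 0.779), which turned to -0.093 without centring. The 6 others, inside the gene or downstream of it, had estimates from -0.18 to 0.21.

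The fatty acid oxidation region with the lowest p lay at the far 5′ end of the Ppargc1a gene span, 81 bp outside it (chr5:52115934-52116233). It stood at 13.6 in naive, 25.4 in antigen-experienced and 22.2 in effector cells. At day 9 it stood at 25.6 and 26.6 in high to high, 38.5, 44.7 and 43.4 in low to low, and 32.4, 29.3 and 19.7 in low to high. All 3 YFP-low libraries were above all 5 YFP-high ones. The log2 fold change of -0.44 ± 0.12 did not pass (limma adjusted p = 0.104). It passed with the replicate number as a block (-0.47, adjusted p = 0.0427), without centring (-0.66, adjusted p = 0.0139) and without low to high 1 (-0.50, adjusted p = 0.0425).

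The neighbouring region inside Ppargc1a (chr5:52113037-52113266) was the one that YFP-low libraries lacked. It stood at 21.7 and 20.6 in high to high and at 23.4 and 22.8 in 2 of the low-to-high libraries, while low to high 2 and all 3 low-to-low libraries had no peak within 346 bp. The weakest peak in the low-to-low lists was 2.83 to 4.08. The caller removes peaks that are under 4-fold above the surrounding 10 kb, a stretch in which the region at the 5′ end is taller in the YFP-low libraries; the part of that filter was not tested. Another region 10071 bp outside the span stood at 14 in naive, 17.9 in antigen-experienced and 4.7 in effector cells and at 12.3 to 19.2 at day 9, and its estimate was 0.04 ± 0.14 on the log2 scale (limma adjusted p = 0.966), turning to -0.18 without centring and to -0.050 without high to high 1.

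**Figure D4:**
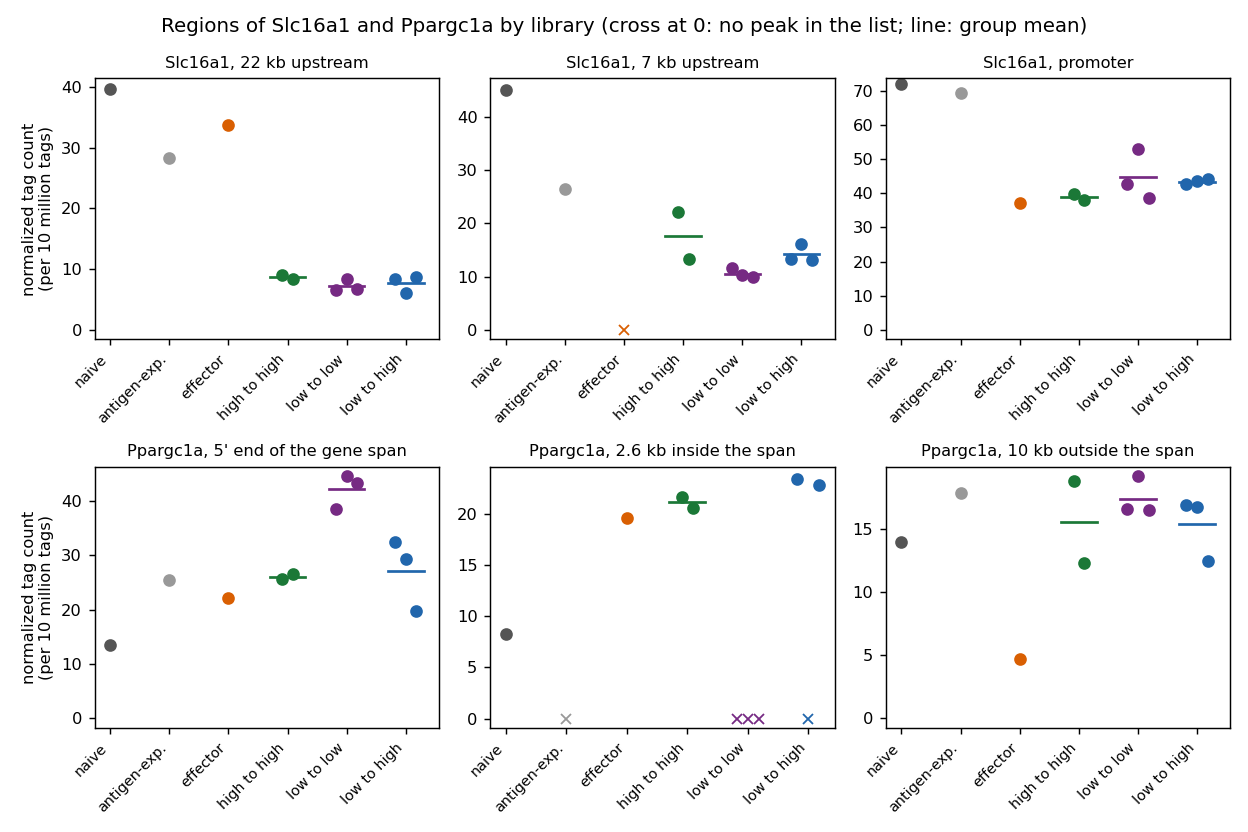
Normalized tag count (vertical axis) of 3 regions of Slc16a1 (top) and 3 of Ppargc1a (bottom) in each library, with a line at the mean where every library of a group has a peak and a cross at 0 where the list holds none. At the middle top panel the YFP-high libraries stand at 13.2 to 22.1 and the YFP-low ones at 9.88 to 11.6.

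The remaining regions with the lowest p were Pdk3 (promoter, -0.29 ± 0.11), Hif1a (inside the gene, 0.43 ± 0.17), Pgk1 (-0.33 ± 0.14), Cpt2 (15472 bp outside, -0.40 ± 0.15) and Hadha (0.31 ± 0.16), with limma adjusted p from 0.398 to 0.619. The Cpt2 region was higher in all 3 YFP-low libraries (11.9, 14.8 and 13.7) than in the 5 YFP-high ones (6 to 9.62) on the deposited scale. It had 4.47 in antigen-experienced cells and no peak in naive or effector cells. The Pgk1 region was likewise higher in YFP-low (14.5, 18.9 and 17.8) than in YFP-high libraries (10.3 to 12.8).

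Scale bears on these directions. Without centring the YFP-high libraries were lower by a median of 0.22 over all regions, 9 member regions passed, all lower in YFP-high cells (6 of glycolysis, 3 of fatty acid oxidation), and 5.88% of all regions passed (79 higher, 1943 lower). For high to high against low to low the shift was -0.29, and 28 members passed, 1 higher and 27 lower, beside 21.6% of all. The share of tags in peaks given above moves with this shift; its part was not tested.

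**Figure D5:**
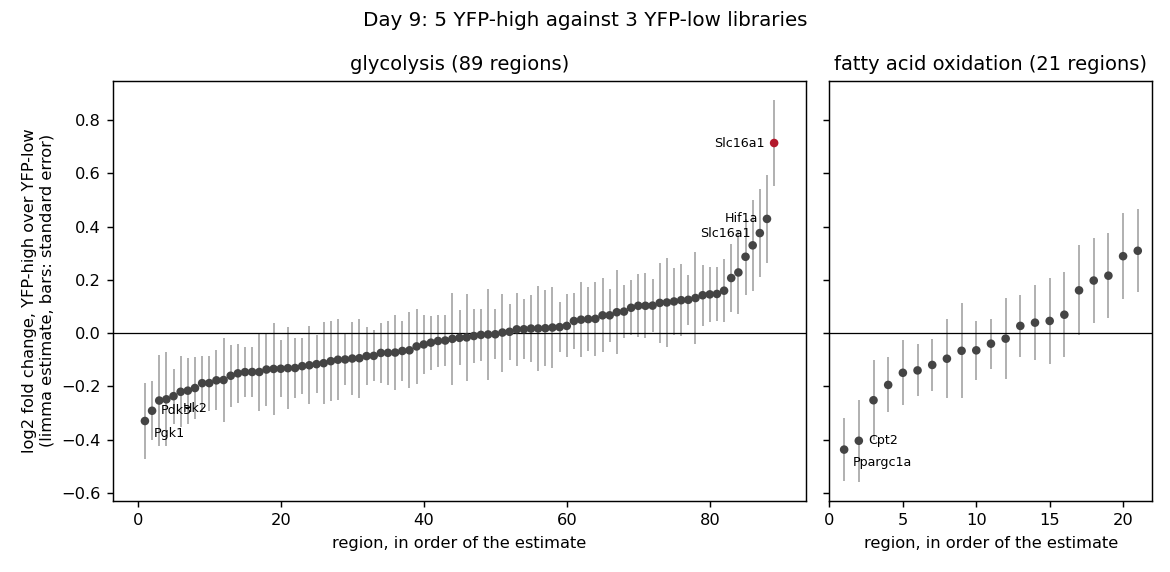
limma estimate of the log2 fold change between YFP-high and YFP-low libraries of day 9 (vertical axis, bars are standard errors) for the 89 glycolysis and 21 fatty acid oxidation regions in order of size, with names at an unadjusted p under 0.05. The red point, Slc16a1 at 0.71, is the 1 region past the threshold.

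For high to high against low to low, 1 glycolysis region passed (Slc16a1, above) and none of fatty acid oxidation, where 205 of all regions (0.596%) did. For low to high against low to low none passed, where 11 of all (0.032%) did. At an unadjusted p under 0.05 were 4 glycolysis and 2 fatty acid oxidation regions in that comparison, and a fit with the replicate number as a block called none either. Low to high against high to high asks whether cells that switched back differ from those that stayed high. limma called none of the 89 and 21, and 0 of all regions (0%), with 4 and 1 member regions and 1749 of all at an unadjusted p under 0.05. The medians were -0.03 and 0.04.

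Among the marker genes, a region 26981 bp from Cd40lg (chrX:57184873-57185162), a gene of helper T cells, rose in the same fits. It was higher in YFP-high cells (0.98 ± 0.16, limma adjusted p = 0.00158), in high to high against low to low (0.99 ± 0.20, adjusted p = 0.00962) and in low to high against low to low (0.97 ± 0.18, adjusted p = 0.0265). No other of the 6 tested regions of CD4 and regulatory T cell markers passed in any of the comparisons. In YFP-high against YFP-low cells these 6 had a median of 0.14 and a lowest estimate of -0.20. The part of the Cd40lg region in the Slc16a1 result was not tested.

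Other genes of both pathways were read in the same fits. Of the other glycolysis genes, 2 of 39 tested regions rose in high to high against low to low, both assigned to Adpgk, an ADP-dependent glucokinase. One lay inside the gene (chr9:59308526-59308775; 0.89 ± 0.21, limma adjusted p = 0.0319) and one 91895 bp away (chr9:59199316-59199677; 0.87 ± 0.21, adjusted p = 0.0489). None of the 39 passed in the other 3 comparisons, with 4, 2 and 1 at an unadjusted p under 0.05. Of the other fatty acid oxidation genes, 0 of 48 tested regions passed in any of the 4 comparisons, with 1 or 2 at an unadjusted p under 0.05 in each. Between effector and naive cells, 2 of 37 and 2 of 52 regions of these lists were at least 2-fold higher and 4 and 1 lower.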

How the data were processed

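ATAC-seq of sorted mouse CD8+ T cells was deposited as 11 peak lists. Per the file headers, the authors called peaks in each library alone, without a control, with a false discovery rate (FDR) of 0.001, a height at least 4-fold above the surrounding 10 kb and a local p-value of 1e-04 or less. The value used is the signal that the authors deposited as Normalized Tag Count, tags per 10 M. Per the submitters' processing notes, reads were aligned with Bowtie2 to mm10 and processed with HOMER 4.10. Values below 10 are whole numbers of read ends within 0.1, and the weakest peak of a list holds 16.0 to 28.0 read ends, which limits the precision of low values.

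Peaks on autosomes and X that overlap by at least 1 bp were merged over the 11 lists, the highest tag count of a library standing for the region, and each region was given to the nearest RefSeq protein-coding gene span within 100 kb. Log2 of the tag count plus 1 was centred on the library median. limma 3.58.1 in R 4.3.3 (trend, no block) was fitted to the regions called in all 8 day 9 libraries, after it was tested on simulated data. A region that a library lacks has no value, so regions absent from a day 9 library were not tested. The naive, antigen-experienced and effector groups have 1 library each: differences are given without a test, and at least 2-fold is counted. Same-numbered low-to-low and low-to-high libraries deviated together from their group means (correlations 0.298, 0.136 and 0.161 over regions), so the numbers may pair those groups, although the labels do not say so; high-to-high libraries did not (-0.041 to -0.001). The alternatives are a replicate block, no centring, cyclic loess, a pseudocount of 5, regions called in at least 6 libraries, an overlap of 50 bp, a tag count of at least 10, a 10 kb limit, no ties and each library left out.

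The members and lists were chosen with earlier results of these data known. Regions given in full are those called at day 9, the 5 (glycolysis) and 3 (fatty acid oxidation) with the lowest p or the most extreme reference difference, each gene's strongest region, and up to 8 per presence class. Promoter windows and sequences are from RefSeq (GRCm38.p6, the assembly of mm10). The 6 printed promoters, the split by promoter and the reading of nearby peaks as presence were chosen after the values were seen.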

Additional observations from a re-analysis of the deposited data

Results flagged for a closer look

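In 50 regions with values given or examined, 1 of the 5 YFP-high day 9 libraries was looked for that stands far from the other 4, with Dixon's criterion (gap over range above 0.71). It was met 4 times (8%). Chance gives about 1 in 20 for 5 values drawn from a single normal population. Here the tag counts were not centred and the libraries come from both YFP-high groups. The regions also share these libraries and were largely chosen by their values, so the 2 rates cannot be compared directly. At the Slc16a1 region 22106 bp upstream, low to high 2 stood at 6.14 and the others at 8.39 to 9.1. At the Hk1 promoter, low to high 1 stood at 63.8 and the others at 53.3 to 54.8. At the Aldoa promoter, low to high 2 stood at 45.5 and the others at 38.7 to 40.2. At the Ldha promoter, high to high 1 stood at 21.9 and the others at 30.7 to 31.5. The regions of Slc16a1, Hk1 and Ldha did not pass in any of the 4 day 9 comparisons, and the Aldoa region was not tested, since 1 low-to-low library has no peak there. No library accounts for more than 2 of the 4.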

How the results depend on the processing

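Counts of member regions called at day 9 are small and moved with the processing. For YFP-high against YFP-low the count of 1 became 2 with the replicate block (Ppargc1a joined, adjusted p = 0.0427), 9 without centring, and 0 when regions called in at least 6 of 8 libraries or only peaks of at least 10 were used; leaving out 1 library gave 0 to 2. For high to high against low to low the count of 1 became 28 without centring and 0 under both of those filters, and 0 to 1 with a library left out. With the tag count of at least 10 the Slc16a1 region was not tested, since 1 library stands at 9.88. Leaving out a library gave 0 throughout for low to high against low to low and against high to high, and the replicate block changed no other count. Between effector and naive cells the count of members at least 2-fold higher was 11, 6 with a pseudocount of 5 and 5 without centring; the count lower was 1, 0 within 10 kb and 29 without centring. The glycolysis median of -0.18 became 0.11 with a tag count of at least 10 and -0.75 without centring, and the fatty acid oxidation median of 0.23 became 0.058 within 10 kb and -0.33 without centring; the gap of -0.42 became -0.014 with a tag count of at least 10. Between antigen-experienced and naive cells, no centring gave 2 members higher and medians of 0.10 (glycolysis) and 0.28 (fatty acid oxidation). Regions in the effector library alone numbered 26, 7 when a peak of at least 20 was asked for and 14 within 10 kb. Regions in all day 9 and neither spleen library numbered 11, and 3, 6 and 5 with a peak of at least 20, all peaks of at least 10, and within 10 kb. The causes were not tested. Of the other alternatives, 115 left these values within 1.5 times or 1 SD, and of the 11 day 9 regions followed through the alternatives 2 reversed their sign without passing in any: the Slc16a1 promoter (-0.093 without centring) and the Ppargc1a region 10071 bp outside (-0.18 without centring, -0.050 without high to high 1).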
